A study of Mus musculus with 6 samples.

Results

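The Wnt ligands, receptors and regulators described here are 48 genes chosen by name for their place in the Wnt pathway, and 47 of them were measured among the 19938 genes of the arrays. A gene was read from probe sets annotated to its symbol alone, and where there were several the one with the highest mean over the 6 arrays was kept. Tcf7 had no such probe set and is not analysed here, 46 members had 1 probe set, and Wnt4 had 2. RNA came from mouse embryonic stem (ES) cells, cultured cells of the early embryo that can form all its tissues. The wild-type group held 3 arrays, replicates 1, 2 and 3, and the Satb1-/- group held 3 arrays, labelled clone 1-1, 1-2 and 2-1, without a statement of what the first number means or whether cultures were separate. P-values therefore rest on array-to-array spread, which could be technical only, and a knockout made of few clones can differ from wild type in more than Satb1. All cells of both groups carried a HygroTK reporter in the Oct4 locus, grew in serum medium to which LIF was added, and spent 3 days on irradiated feeder fibroblasts with hygromycin, which selects for Oct4 expression; after a settling step meant to remove feeders, the upper part of the suspension was used for total RNA.

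Satb1, a DNA-binding protein that organises chromatin, read 5.12, 4.99 and 5.31 in wild-type replicates 1, 2 and 3 and 4.38, 4.47 and 4.57 in knockout replicates 1-1, 1-2 and 2-1 (log2 expression values; difference -0.67, limma adjusted p = 0.022). The sources do not place its probe set relative to the deletion. Pou5f1, the Oct4 gene, differed by -0.39 (limma adjusted p = 0.309). The 10 ES cell markers averaged 9.36 to 9.60 in wild type and 9.56 to 9.61 in knockout, above the median gene (5.05) on all 6 arrays. Single markers moved in both directions. Nanog (1.09) and Esrrb (0.56) were called higher and none lower, while 0.923% of all genes were called higher. Groups did not overlap for 7 of the 10, 3 above and 4 below wild type, against 15.1% of all genes. An unadjusted limma p under 0.05 was reached by 6, against 10.5% of all genes. The 16 feeder fibroblast markers averaged 6.32 to 6.59 in wild type and 6.54 to 6.78 in knockout. Of the 16, 14 (87.5%) were higher in knockout (median 0.16), against 48.5% of all genes. None passed the threshold, and 3 (18.75%) had an unadjusted limma p under 0.05, against 10.5% of all genes. In RNA from a whole culture, fewer cells of a type and less RNA per cell cannot be told apart.

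Wnt proteins are secreted signals that carry a lipid, added by the acyltransferase encoded by Porcn, and leave the cell with the carrier protein Wls. At the receiving cell a Wnt binds a Frizzled receptor together with the co-receptor LRP5 or LRP6, Dishevelled is recruited, and the destruction complex of Axin, APC and GSK3 stops marking beta-catenin for degradation. Beta-catenin then enters the nucleus and joins TCF/LEF factors; in ES cells this input helps to sustain self-renewal, largely by lifting the repression that Tcf7l1 exerts on pluripotency genes.

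Lrp6 was the 1 Wnt gene of the 47 that rose in cells without Satb1, and none fell. Its log2 values were 7.77, 7.99 and 7.64 in wild-type replicates 1, 2 and 3 and 9.38, 9.44 and 9.40 in knockout replicates 1-1, 1-2 and 2-1. Every knockout array lay above every wild-type array, and the 3 knockout values lay close together. The means were 7.80 ± 0.17 and 9.40 ± 0.030 (SD, n = 3 each), a difference of 1.60 log2 units (SE 0.12, limma adjusted p over all genes = 0.000254), or a fold of 3.04. Its p ranked at place 3 among the 19938 genes. Among all genes 0.923% were called higher and 0.476% lower by the same rule, an adjusted p under 0.05. The call was kept without any one of the 6 arrays (differences of 1.53 to 1.70) and lost only where values were floored at the median gene level (adjusted p = 0.0597), among the settings tried. All 6 Lrp6 values lie above that floor, so its difference was unchanged there.

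The other 46 members spread around 0 much as the other genes of the arrays did. Their median difference was -0.0099, against -0.0044 over all genes tested, and 22 were higher and 24 lower in knockout. Groups did not overlap for 7 of the 47 members (14.9%), against 15.1% of all genes: 4 lay above wild type (8.18% of all genes did) and 3 below (6.97%). At an adjusted p under 0.1, Lrp6 was still the 1 member called, while 2.43% of all genes were. An unadjusted limma p under 0.05 was reached by 7 members (14.9%), against 10.5% of all genes. The median absolute difference was 0.098 log2 units for members and for all genes, and the median SD of a member was 0.17 in wild type and 0.10 in knockout. The 95% interval of the difference lay within 1 log2 unit of 0 for all members but Lrp6, and within 0.5 for 37 of 47. Background signal compresses differences of dim genes on these arrays, and 17 members had a mean under 5.05, the level of the median gene.

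**Figure D1:**
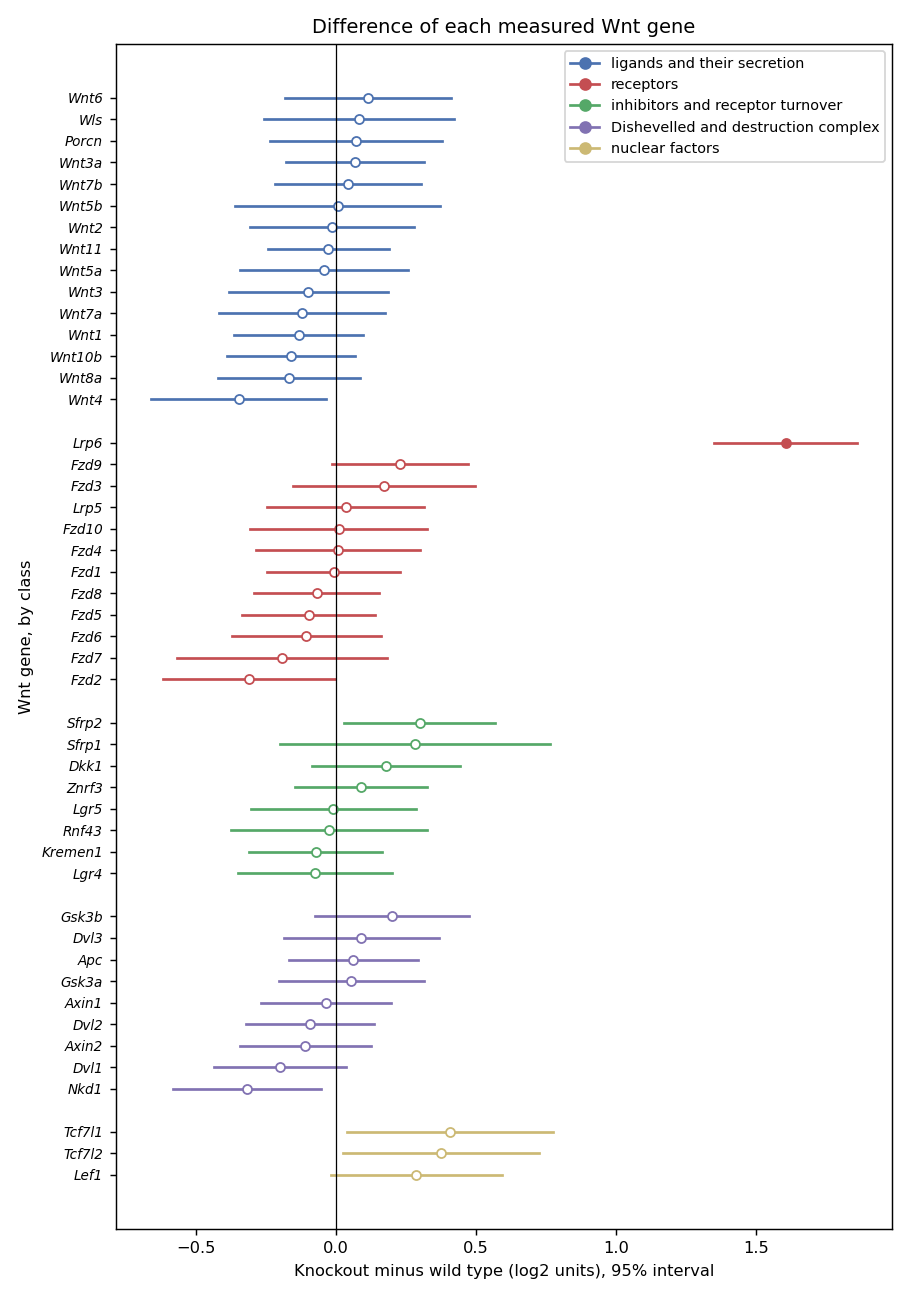
Difference between knockout and wild type for each of the 47 measured Wnt genes, in log2 units, with its 95% interval from limma; colours mark the 5 classes, a filled point an adjusted p under 0.05 and an open point one that missed it. Lrp6 stands alone at 1.60, and the other 46 lie between -0.35 (Wnt4) and 0.41 (Tcf7l1).

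No Wnt ligand or secretion gene passed the threshold: of 15, 6 were higher and 9 lower in knockout, with a median of -0.029, and the groups of all 15 overlapped. Wnt4, a ligand known for its part in kidney and gonad development, had the largest negative difference of all members. It read 6.43, 6.22 and 5.99 in wild-type replicates 1, 2 and 3 and 6.07, 5.82 and 5.71 in knockout replicates 1-1, 1-2 and 2-1. Knockout replicate 1-1 lay above wild-type replicate 3, so the groups overlapped (difference -0.35, SE 0.14, limma adjusted p = 0.398). Its second probe set differed by -0.11. Wnt6 had the largest positive difference of the ligands. It read 5.18, 4.67 and 4.94 in wild type and 5.03, 4.99 and 5.11 in knockout, with the knockout values inside the wild-type range (difference 0.11, interval -0.18 to 0.41), and the difference turned to -0.017 without wild-type replicate 2.

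The ligands that act through beta-catenin in the early embryo differed little. Wnt3, needed to form the primitive streak, differed by -0.099 (interval -0.38 to 0.19), and Wnt3a, used to sustain ES cells in culture, by 0.066 (interval -0.18 to 0.31). Wnt8a read 4.87 in wild type and 4.70 in knockout, a difference of -0.17. Other ligands, Wnt1 (-0.13), Wnt10b (-0.16), Wnt7a (-0.12), Wnt2 (-0.015) and Wnt7b (0.041), also differed little. None of the ligands named so far in this paragraph came near the threshold (limma adjusted p of 0.694 or more). Of the ligands best known for signalling outside the beta-catenin branch, Wnt5a differed by -0.044, Wnt11 by -0.029 and Wnt5b by 0.0047. The level of 10 of the 13 ligands lay under that of the median gene, where log2 differences are compressed. Both secretion genes lay above the median gene: Porcn read 5.69 ± 0.25 and 5.76 ± 0.12 and Wls 6.21 ± 0.20 and 6.30 ± 0.27 (SD, n = 3 each), with differences of 0.071 and 0.083.

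Among the 12 receptor genes Lrp6 rose and the other 11 had a median difference of -0.0093. Lrp5, the second co-receptor, read 7.02, 7.13 and 6.71 in wild-type replicates 1, 2 and 3 and 6.97, 7.07 and 6.93 in knockout replicates 1-1, 1-2 and 2-1. The knockout values lay inside the range of the wild-type values, and the difference of 0.034 had an interval of -0.25 to 0.31, which lies below the interval of Lrp6 (1.35 to 1.86). Of the 10 Frizzled genes, the receptors that bind Wnt directly, 4 were higher and 6 lower, and none was called.

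Fzd2 and Fzd9 were the Frizzled genes whose groups did not overlap, in opposite directions. Fzd2 read 6.26, 5.74 and 5.86 in wild type and 5.71, 5.59 and 5.62 in knockout (difference -0.31, SE 0.14, limma adjusted p = 0.464), and its wild-type replicate 1 stood above the other arrays; without it the difference was -0.16. Fzd9 read 5.19, 5.22 and 5.27 in wild type and 5.35, 5.40 and 5.61 in knockout (difference 0.23, SE 0.11, limma adjusted p = 0.531). The gap between the groups was narrow in both genes, at less than the spread within the wider group. Fzd7, the Frizzled gene best known from pluripotent cells, read 7.77, 8.44 and 7.82 in wild type and 7.76, 7.91 and 7.77 in knockout. Wild-type replicate 2 was the highest array, and the difference of -0.19 had a wide interval (-0.57 to 0.18). Fzd3 differed by 0.17, Fzd6 by -0.11, Fzd5 by -0.098 and Fzd8 by -0.070. Fzd1, Fzd4 and Fzd10 differed by -0.0093, 0.0075 and 0.0085.

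**Figure D2:**
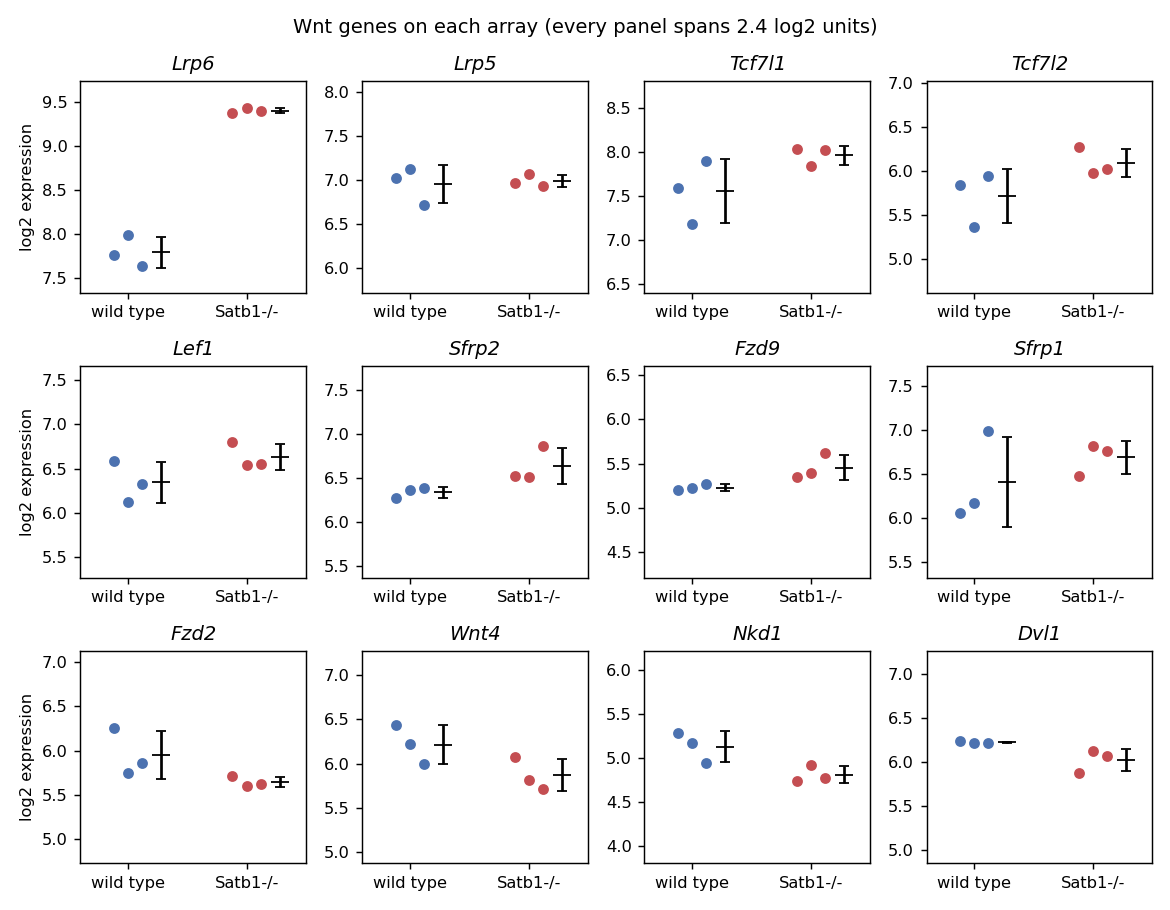
Log2 expression of 12 Wnt genes on each array; points are arrays, in each panel from left to right wild-type replicates 1, 2 and 3 and knockout replicates 1-1, 1-2 and 2-1, and black marks give mean and SD (n = 3). Every panel spans the same number of log2 units around its own middle: the Lrp6 groups lie far apart, while the groups of the other genes touch or nearly touch.

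Of 4 extracellular inhibitors 3 were higher in knockout and none passed the threshold. Sfrp1 and Sfrp2 encode proteins that bind Wnt outside the cell. Sfrp2 read 6.27, 6.36 and 6.38 in wild-type replicates 1, 2 and 3 and 6.52, 6.51 and 6.86 in knockout replicates 1-1, 1-2 and 2-1. All knockout values lay above all wild-type values, with replicate 2-1 highest (difference 0.30, SE 0.12, limma adjusted p = 0.404). Sfrp1 read 6.06, 6.17 and 6.99 in wild type and 6.48, 6.82 and 6.77 in knockout. Wild-type replicate 3 was the highest of all arrays and replicates 1 and 2 the lowest, which gave a difference of 0.28 with the largest standard error of the members (SE 0.22, limma adjusted p = 0.773). Without wild-type replicate 3 Sfrp1 differed by 0.57 and passed the threshold (limma adjusted p = 0.0471). Fibroblasts also express Sfrp genes, and the feeder marker level given above was lowest on wild-type replicate 3 (6.32) and highest on knockout replicate 1-1 (6.78); its part in these values was not tested.

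Dkk1, whose product binds LRP6 and blocks it, differed by 0.18 (interval -0.085 to 0.44), and Kremen1, a receptor for Dickkopf proteins, by -0.074. The 4 genes that set how much receptor stays at the surface had differences between -0.075 and 0.088. Rnf43 and Znrf3 encode ligases that remove Frizzled from the membrane, and differed by -0.025 and 0.088. Lgr4 and Lgr5 encode receptors for R-spondins, which counter those ligases. Lgr4 read 8.34, 8.32 and 8.51 in wild type and 8.46, 8.10 and 8.38 in knockout, with overlap, and its difference of -0.075 was the most negative of this class; it turned to 0.031 without knockout replicate 1-2. Lgr5 read below the median gene, at 3.66 and 3.65.

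None of the 9 Dishevelled, Naked and destruction complex genes was called. The class had a median of -0.036, which lay between -0.085 and -0.0011 when 1 array was left out. Dvl1 encodes a Dishevelled protein and Nkd1 a Dishevelled-binding inhibitor that Wnt signalling itself induces; both had knockout values below all wild-type values. Nkd1 read 5.28, 5.17 and 4.94 in wild-type replicates 1, 2 and 3 and 4.74, 4.92 and 4.78 in knockout replicates 1-1, 1-2 and 2-1 (difference -0.32, SE 0.12, limma adjusted p = 0.344). Dvl1 read 6.23, 6.22 and 6.21 in wild type and 5.88, 6.12 and 6.07 in knockout (difference -0.20, SE 0.11, limma adjusted p = 0.595). The wild-type values of Dvl1 were nearly equal and knockout replicate 1-1 was the lowest array. Dvl2 (-0.094) and Dvl3 (0.090) differed in opposite directions.

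Within the destruction complex the kinase gene Gsk3b had the largest difference. It read 7.11, 7.23 and 7.53 in wild type and 7.48, 7.46 and 7.53 in knockout; wild-type replicate 3 equalled the highest knockout value to the second decimal (difference 0.20, SE 0.12, limma adjusted p = 0.679). Its paralogue Gsk3a differed by 0.054, the scaffold gene Axin1 by -0.036 and Apc by 0.061. Axin2, the scaffold gene that beta-catenin signalling induces and that is widely read as a reporter of the pathway, was 5.29, 5.07 and 5.12 in wild type and 5.01, 5.07 and 5.07 in knockout. Wild-type replicates 1 and 3 stood above the knockout range and replicate 2 lay within it, and the difference was -0.11 (interval -0.34 to 0.12, limma adjusted p = 0.843). Ctnnb1, the beta-catenin gene, differed by 0.065.

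The TCF/LEF genes had the highest class median, 0.37, and all 3 measured genes were higher in knockout, but none passed the threshold over all genes. Tcf7l1, the main TCF repressor of ES cells, read 7.59, 7.18 and 7.90 in wild-type replicates 1, 2 and 3 and 8.03, 7.84 and 8.02 in knockout replicates 1-1, 1-2 and 2-1 (difference 0.41, SE 0.17, limma adjusted p = 0.403). Wild-type replicate 2 was low and wild-type replicate 3 reached into the knockout range. With limma array weights Tcf7l1 differed by 0.61 and was called (adjusted p = 0.0462). Without wild-type replicate 2 it differed by 0.22 (adjusted p = 0.664), and it was called in none of the 6 fits that left out 1 array (adjusted p of 0.0618 to 0.802). Tcf7l2 read 5.84, 5.36 and 5.94 in wild type and 6.27, 5.98 and 6.02 in knockout (difference 0.37, SE 0.16, limma adjusted p = 0.423), with groups that did not overlap. Lef1, which encodes a TCF/LEF factor and is itself a Wnt target, read 6.59, 6.12 and 6.33 and 6.80, 6.54 and 6.55 (difference 0.29, SE 0.14, limma adjusted p = 0.527), and its wild-type replicate 1 lay above 2 of the knockout values. Wild-type replicate 2 was the lowest array for each of these genes. The class median without 1 array was lowest without that array (0.20) and reached 0.49 at most.

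Members that beta-catenin signalling is known to induce gave no common direction. Notum, an induced gene that is not a member, is described below (difference 0.71, limma adjusted p = 0.0689). Of 8 such members, 7 were measured: Lef1 (0.29), Dkk1 (0.18) and Znrf3 (0.088) were higher, and Lgr5 (-0.010), Rnf43 (-0.025), Axin2 (-0.11) and Nkd1 (-0.32) lower. None was called, and their median was -0.010. The start regions of members were searched for the words CTTTGAT and CTTTGAA, forms of the sequence that TCF/LEF proteins bind, on both strands; the words differ only in their last letter and cannot both be counted at one place. RefSeq windows (build GRCm38.p6) were matched by symbol for 32 of the 48 genes. Lrp6 and the induced genes Znrf3 and Lgr5 had no window, so their start regions were not searched. In the 250 bases before a start site, 4 of the 32 (12.5%) held a word, against 8.63% of 27025 genes. They were Dkk1, Gsk3a, Wnt11 and Wnt5b, and no word stood in the windows of Axin2, Nkd1, Lef1 or Rnf43. Shown are windows of the induced genes Dkk1 and Axin2, of Tcf7l1 for the nuclear factors, and of Wnt5b. The flat level of Wnt5b near the edge of a raised stretch is described below. Each window runs 5′ to 3′ along the gene's strand up to the base before the start site, with a word in capitals.
Dkk1 (chr19:30549497-30549746, minus strand): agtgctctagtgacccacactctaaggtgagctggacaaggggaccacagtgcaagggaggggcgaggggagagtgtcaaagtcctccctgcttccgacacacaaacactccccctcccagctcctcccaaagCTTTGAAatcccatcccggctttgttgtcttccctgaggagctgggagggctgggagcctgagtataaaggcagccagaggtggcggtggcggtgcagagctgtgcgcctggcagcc
Axin2 (chr11:108920099-108920348, plus strand): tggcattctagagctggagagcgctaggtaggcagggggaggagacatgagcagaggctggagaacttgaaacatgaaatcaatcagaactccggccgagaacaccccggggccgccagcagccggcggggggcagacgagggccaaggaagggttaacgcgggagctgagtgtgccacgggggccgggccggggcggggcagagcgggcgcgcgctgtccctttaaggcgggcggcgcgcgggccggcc
Tcf7l1 (chr6:72789046-72789295, minus strand): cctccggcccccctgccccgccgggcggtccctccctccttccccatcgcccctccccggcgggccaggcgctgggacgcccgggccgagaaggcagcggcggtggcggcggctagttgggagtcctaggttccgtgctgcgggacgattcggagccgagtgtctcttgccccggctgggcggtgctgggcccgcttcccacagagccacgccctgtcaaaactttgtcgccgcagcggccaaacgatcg
Wnt5b (chr6:119449387-119449636, minus strand): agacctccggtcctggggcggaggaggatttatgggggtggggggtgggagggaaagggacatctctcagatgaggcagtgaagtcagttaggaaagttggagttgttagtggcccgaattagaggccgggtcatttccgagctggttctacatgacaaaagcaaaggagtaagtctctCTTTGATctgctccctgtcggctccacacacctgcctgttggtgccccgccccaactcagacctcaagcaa
The Dkk1 word stands on the gene's own strand, as does that of Wnt5b, which lies before 1 of 3 listed start sites. A word in a window is a match of letters and was not tested as a binding site.

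Lrp6 lies among genes of chromosome 6 that were also higher in knockout. Of the 20 nearest genes on the chromosome with a mean above the median gene, 10 on either side, 18 were higher, 14 were called, all higher but Prp2 (1.4% of all genes were called in either direction), and their median difference was 0.91. The filter used the mean of all 6 arrays, so it favours genes that are high in 1 group. Bcl2l14, 1 of the called genes, passed it only through the knockout arrays (4.83 in wild type, 5.84 in knockout). None of the 20 had a larger difference than Lrp6. The nearest were Cdkn1b, which encodes a cell cycle inhibitor (1.39, at the fifth place after Lrp6), and Dusp16, which encodes a phosphatase of MAP kinases (1.37, at the second). With 5 or 20 genes on either side, or dim genes included, the median around Lrp6 lay between 0.53 and 1.06. Each gene was then set against its neighbours array by array, by subtracting the median of the neighbours after each had been centred on its own mean, a choice made after seeing the data. On that scale Lrp6 read 8.31, 8.40 and 8.04 in wild type and 8.94, 8.98 and 8.96 in knockout. Its difference was 0.71 (SE 0.13, limma adjusted p = 0.0198), and 94 of 19856 genes were higher and 151 lower. Subtracting the median of the neighbours' levels without centring, which mixes probe sets of different brightness, gave 0.96 (limma adjusted p = 0.00319).

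Wnt5b lies on the same chromosome, near the edge of a stretch of genes that rose, and was not called. Its values were 5.87, 5.27 and 5.35 in wild-type replicates 1, 2 and 3 and 5.70, 5.46 and 5.35 in knockout replicates 1-1, 1-2 and 2-1, and the groups overlapped throughout (difference 0.0047, interval -0.36 to 0.37). On either side of it Adipor2, an adiponectin receptor gene, rose by 1.55 and Fbxl14, which encodes an F-box protein, by 0.84. The 20 neighbours of Wnt5b had a median of 0.34, 9 of them were called, and 15 had a larger difference than Wnt5b. Before Wnt5b in gene order Adipor2 was the only neighbour called, and the other called genes came after it. Among those after it, 3110021A11Rik (0.033) and Tmem121b (-0.039) were flat as well, with wild-type means of 5.16 and 5.28. Il17ra, with a wild-type mean of 5.08, rose by 0.75 (limma adjusted p = 0.00668). With other choices of neighbours the median lay between 0.29 and 0.56. Set against its centred neighbours Wnt5b differed by -0.42 (SE 0.17, limma adjusted p = 0.419), and by -0.65 (0.232) without centring. The other members on chromosome 6 had neighbours near 0: medians of 0.059 around Wnt2, -0.031 around Wnt7a and 0.086 around Tcf7l1.

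**Figure D3:**
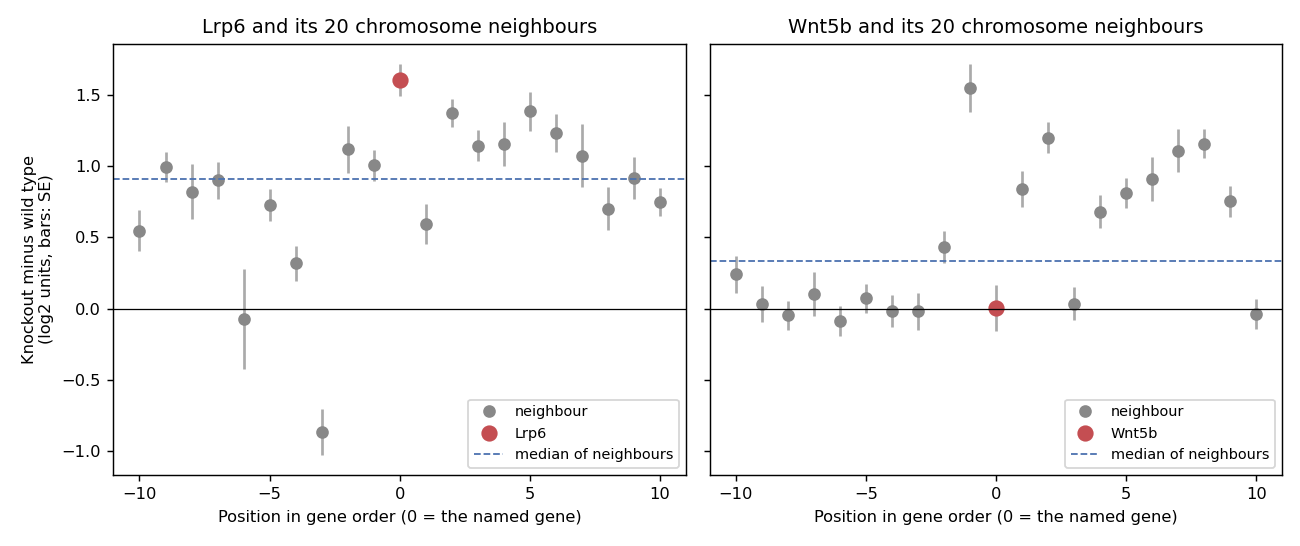
Differences between knockout and wild type (log2 units, bars give the SE) of Lrp6, left, and Wnt5b, right, with the 10 nearest brighter genes on either side in chromosome order; the dashed line is the median of the neighbours. Lrp6 (1.60) lies above all its neighbours (median 0.91), and Wnt5b (0.0047) lies at 0 where most genes to its right are higher.

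Chromosome 8 carries 2 members. Around Nkd1 the median of the 20 neighbours was -0.25, 2 were higher and 2 were called, and against its centred neighbours Nkd1 differed by -0.053 (limma adjusted p = 0.955; -0.19 without centring). Around Sfrp1 the median was -0.20, 3 neighbours were higher, and none had a larger difference than Sfrp1. Against its centred neighbours Sfrp1 differed by 0.51 (SE 0.20, limma adjusted p = 0.388; 0.68 without centring). With other choices of neighbours the medians lay between -0.39 and -0.25 around Nkd1 and between -0.25 and -0.066 around Sfrp1. The nearest value was that of Adam9 (0.25), the gene next to Sfrp1. The remaining members lay on 15 other chromosomes, 8 of them on chromosome 11, and for those the neighbours' medians lay between -0.083 (Wls) and 0.21 (Porcn).

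Beyond the 48 genes, 7 lists of related genes were set beside them, with 113 genes of which 110 were measured. Of these, 6 rose and 1 fell, while 0.923% of all genes were called higher and 0.476% lower. The lists of other ligands and secretion genes (12), other extracellular inhibitors (16), other cytoplasmic genes of the beta-catenin branch (18) and other nuclear genes of that branch (18 measured) held no called gene (4 of these 64 had an unadjusted limma p under 0.05), with medians of -0.069, 0.018, 0.038 and -0.0029. Notum, which encodes an enzyme that strips the lipid from Wnt proteins and is induced by the pathway, had the largest difference among them. It read 5.24, 5.41 and 5.81 in wild type and 6.45, 6.05 and 6.09 in knockout, without overlap (difference 0.71, SE 0.16, limma adjusted p = 0.0689). Rspo4 (-0.30) had the most negative difference of its list, Kremen2 (-0.26) and Dkk3 (0.28) were at the ends of the inhibitor list, and Tle4 (-0.17) and Ctnnbip1 (0.24) at those of the nuclear list. In the cytoplasmic list Tnks (-0.37), whose product marks Axin for degradation, and Ppp2ca (0.40), a phosphatase subunit gene, were at the ends; the neighbours of Tnks on chromosome 8 had a median of -0.31 and those of Ppp2ca on chromosome 11 one of 0.62.

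In the non-canonical list, which covers receptors and planar polarity genes that act without beta-catenin, 1 of 19 genes fell and none rose. Among all genes 0.476% were called lower. Prickle1, a core planar polarity gene, read 5.97, 5.85 and 6.22 in wild type and 5.47, 5.34 and 5.32 in knockout (difference -0.64, SE 0.12, limma adjusted p = 0.031). All knockout values lay below all wild-type values, but leaving out wild-type replicate 1, or a single knockout array, ended the call (differences of -0.68 to -0.61), as did 4 of the other settings: centring each array (adjusted p = 0.0546), testing all probe sets (0.149), the floor (0.256) and taking arrays 1-1 and 1-2 as 1 sample (0.119). Vangl1, a partner of Prickle proteins, read 6.50, 6.62 and 6.90 in wild type and 7.13, 7.20 and 7.28 in knockout and was just outside the threshold (difference 0.53, limma adjusted p = 0.0746).

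Of 16 measured genes that beta-catenin is known to induce outside the pathway, none passed the threshold, and the median was -0.067. An unadjusted limma p under 0.05 was reached by 4 (25%), against 10.5% of all genes. Eomes, a T-box gene of early mesendoderm and trophoblast, was at the upper end (4.75 ± 0.035 and 5.30 ± 0.22, SD, n = 3 each; difference 0.55, limma adjusted p = 0.068). Plaur, the urokinase receptor gene, was at the lower end (-0.62, limma adjusted p = 0.184). Ccnd1 (0.38) and Cd44 (0.48) read higher and Myc (-0.36) lower, all with overlapping groups. Sp5, a gene that responds directly to Wnt in ES cells, differed by -0.057 and Cdx1 by 0.0066.

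Genes that Tcf7l1 is known to hold down in ES cells contained 6 of the 7 calls. Of 11 measured, 6 rose (0.923% of all genes were called higher), none fell, and the median was 0.56. Many of these are regulators of pluripotency whose rise was known when the list was written, so their count is no independent evidence. Tbx3 rose by 1.59 (limma adjusted p = 0.00215), Nr5a2 by 1.32 (0.00209), Tfcp2l1 by 0.88 (0.0182), Klf5 by 0.60 (0.0166) and Esrrb by 0.56 (0.0435), each with neighbours whose median lay between -0.012 and 0.089. Tfcp2l1 encodes a factor that acts downstream of LIF and Wnt in naive cells; it read 7.10 ± 0.22 in wild type and 7.99 ± 0.24 in knockout (SD, n = 3 each), without overlap. Nanog rose by 1.09, but its 20 neighbours on chromosome 6 had a median of 1.01, and set against them, centred, it differed by 0.073 (limma adjusted p = 0.920); without centring the sign turned (-0.17). Klf2 (0.077), Tcl1 (0.23), Foxd3 (-0.00063) and Lefty2 (-0.062) were not called. Lefty1 read 6.62, 6.47 and 7.89 in wild type and 5.94, 5.99 and 5.85 in knockout, with wild-type replicate 3 far above the rest (difference -1.07, limma adjusted p = 0.147). The Esrrb call ended when wild-type replicate 1 or a single knockout array was dropped (adjusted p of 0.106 to 0.209). That of Tfcp2l1 ended on dropping wild-type replicate 1, knockout 1-2 or knockout 2-1 (0.0730 to 0.111), and that of Klf5 on dropping a single knockout array (0.0669 to 0.129). The floor ended all 6 calls of this list (adjusted p of 0.0743 to 0.311), and the test of all probe sets those of Tbx3 (0.0526), Klf5 (0.0813), Tfcp2l1 (0.137) and Esrrb (0.165). Esrrb and Klf5 were not called with arrays 1-1 and 1-2 as 1 sample (0.171 and 0.0693) or against centred neighbours (0.0944 and 0.0683), nor was Tfcp2l1 against centred neighbours (0.0623), nor was Esrrb with each array centred (0.0542). Tcf7l1 itself did not pass the threshold, as given above.

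**Figure D4:**
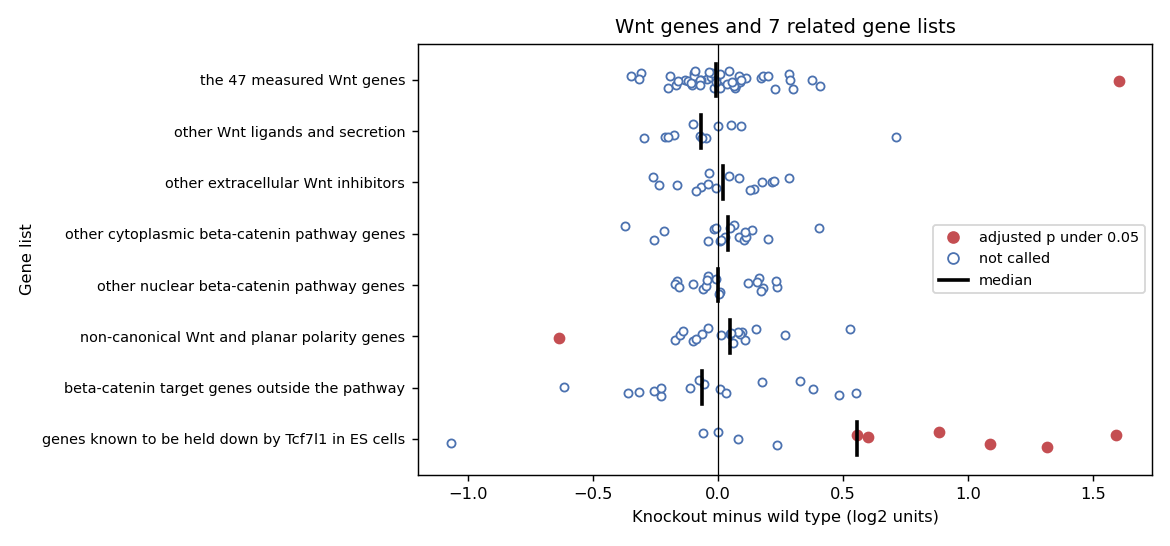
Difference between knockout and wild type (log2 units) for the 47 measured Wnt genes and the 7 related lists, 1 point a gene, spread vertically for legibility; red points passed an adjusted p under 0.05 and black bars are medians. Most lists centre near 0, and the called genes are Lrp6, Prickle1 and 6 of 11 measured genes known to be held down by Tcf7l1. The rise of many genes in that last list was known when it was written.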

How the data were processed

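RNA of 3 wild-type and 3 Satb1-/- samples was hybridised to 1-colour arrays. The deposited log2 values, 1 per probe set and array, were computed by the authors with RMA, per the submitters' processing notes; no source used here gives its version, settings or a genome build. There were 35557 probe sets, none with a missing value (array medians 4.69 to 4.85), of which 21789 had exactly 1 gene symbol in the platform annotation, 1621 several and 12147 none. The probe set with the highest mean was kept, giving 19938 genes.

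The test was limma 3.58.1 under R 4.3.3 (lmFit, then eBayes) without covariates or filter, with Benjamini-Hochberg adjustment over all genes and a call at an adjusted p under 0.05. Differences are knockout minus wild type. Arrays have no read depth, and their number limits the precision. Neighbours were found in RefSeq's gene order, GRCm38.p6 (19856 genes found by Entrez ID). The fit was tested on simulated data. The members, the 7 lists and the rule for named genes (called members, members whose groups did not overlap, and the extremes of each class or list) were chosen with earlier results of these data known; other genes given with values, such as Sfrp1, Lrp5, Fzd7 and Axin2, were picked after values were seen to show each role. Alternatives were other normalizations, filters, probe set rules, weights, variance priors, leaving out each array, and other neighbour choices.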

Additional observations from a re-analysis of the deposited data

How the results depend on the processing

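Lrp6 kept its direction under every setting tried and missed the threshold only with values floored at the median gene level (1.60, adjusted p = 0.0597). All 6 Lrp6 values lie above that floor, so its values and difference were unchanged and only its p moved. That floor left 12 higher and 1 lower of all genes, 0 called Wnt genes and 0 higher and 0 lower genes in the related lists. In all, 184 genes were higher and 95 lower; leaving out 1 array gave 74 to 356 and 19 to 124, 1 to 2 higher Wnt genes (0 lower), and 3 to 9 higher and 0 to 2 lower genes of the lists. Of these 6 fits, the one without wild-type replicate 3 called the most higher genes, and Sfrp1 with Lrp6. Counts of higher and lower genes were 68 and 15 over all probe sets (lists 2 and 0), 90 and 27 with knockout arrays 1-1 and 1-2 as 1 sample (lists 0 lower), 373 and 235 with array weights (2 Wnt genes and 10 list genes higher), and, chosen after seeing the data, 94 and 151 against centred chromosome neighbours (lists 2 and 1) and 86 and 168 without centring them (lists 3 and 2). A second quantile normalization gave 183 lower genes, and centring each array gave 47 (lists 0); of the called genes 65.9% were higher, against 56.9% and 77.2% under these, 92.3% with the floor, 76.9% with 1-1 and 1-2 as 1 sample, and 38.4% and 33.9% against neighbours with and without centring. Several class medians are near 0 and have no fixed sign. That of the ligands (-0.029) ran from -0.11 to -0.0012 without 1 array and was 0.041 among brighter genes, and that of the inhibitors (0.039) from -0.0014 to 0.10 without 1 array. That of the Dishevelled and destruction complex class was -0.083 after quantile normalization, -0.0078 with centring, 0.0090 among brighter genes and -0.064 with weights, and -0.085 to -0.0011 without 1 array. That of the receptors was 0.028 with centring and -0.059 to 0.0054 without 1 array. Among the genes followed across settings, the small difference of Wnt6 turned in sign (-0.022 with the floor, and -0.017 to 0.24 without 1 array). So did that of Lgr4 (0.024 against uncentred neighbours, and -0.15 to 0.031 without 1 array). Nanog turned from 1.09 to -0.17 against uncentred neighbours. Members not followed across settings turned there too, such as Wnt5b (0.0047 to -0.65), Lrp5 (0.034 to -0.14), Porcn (0.071 to -0.12) and Kremen1 (-0.074 to 0.046). The cause of these changes was not tested. No paired analysis was possible because the labels of the groups share no replicate numbers.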

Other observations

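Wild-type replicate 2 was the lowest wild-type array for 19 of the 47 members and the highest for 6, while replicate 1 was the lowest for 15 and replicate 3 for 13. The members' median against the wild-type mean was -0.052 on replicate 2, beside -0.0098 for all genes. Whether these counts differ from those of other genes was not tested. Knockout replicate 1-1 was the highest knockout array for 26 members and replicate 1-2 the lowest for 24. The knockout array labelled 2-1 differed from the mean of 1-1 and 1-2 by a median of 0.083 log2 units per member in absolute size.

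Markers of other cell types were read beside the Wnt genes. The 10 primitive endoderm markers averaged 5.23 to 5.40 in wild type and 5.28 to 5.42 in knockout, and the 6 measured mesendoderm markers 4.38 to 4.53 and 4.40 to 4.59, with none called (3 and 1 had an unadjusted limma p under 0.05). The 10 trophectoderm markers averaged 5.83 to 6.35 and 5.45 to 5.61, with 2 called lower, Krt8 (-2.72) and Krt18 (-2.48). Differences in this list went both ways, with 4 higher and 6 lower in knockout. Its groups lay wholly above wild type for 3 genes and wholly below for 2, against 8.18% and 6.97% of all genes. Of the 10, 6 had an unadjusted limma p under 0.05 (10.5% of all genes did). The 7 neural markers averaged 4.96 to 5.23 and 4.89 to 5.10, with 1 called lower, Nes (-0.58). Among all genes 0.476% were called lower.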
